A study of Mus musculus with 18 samples.

Results

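The 10 acute phase and IL-6 family genes described here are Il6ra, Il6st, Il1r1, Stat3, Socs3, Serpina3n, Lcn2, Lrg1, Cp and Steap4. They were chosen by symbol, as listed, out of 48529 genes with summed reads, and all 10 were among the 15774 genes abundant enough to be tested. Their RNA was measured in whole dorsal root ganglia (DRG), the ganglia that hold the cell bodies of sensory neurons along with glia, vessels and resident immune cells. In the MM group, 9 male mice of the strain C57BL/KaLwRijHsd had received 5TGM1-GFP cells in the femur. In the SHAM group, 9 male mice of that strain had received vehicle by the same route. 5TGM1 is a transplantable mouse myeloma, a tumour of plasma cells, that came from this strain. For the 10 genes, RNA of tumour and host can therefore not be told apart by sequence. The label gives both groups an age of 5 to 7 weeks without saying at which point, and in both the ganglia L2 to L4 of the operated side were frozen on post-surgical day 24.

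Interleukin-6 binds its receptor chain Il6ra, and this pair recruits gp130 (Il6st), the signalling chain that all cytokines of the family share. JAK kinases on gp130 then phosphorylate Stat3, which enters the nucleus and switches on its targets, among them Socs3, which binds gp130 and shuts the signal off. In the liver this route, together with interleukin-1 acting through Il1r1, drives the acute phase response, the rise of secreted defence and carrier proteins during inflammation. In sensory ganglia the same cytokines are known from nerve injury and inflammatory pain. RNA levels show neither the phosphorylation of Stat3 nor the amount of any protein.

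Each library held between 19013852 and 21537955 reads assigned to genes. Summed CPM (read counts relative to library size, scaled by TMM) of 9 sensory neuron markers was 6908 to 15046 in MM libraries and 11021 to 14841 in SHAM libraries. 3 MM libraries stood apart by immunoglobulin RNA: Ighg2b, a heavy chain gene and a myeloma marker, was at 2197 CPM in MM5, 2334 CPM in MM8 and 4374 CPM in MM9. The other 6 MM libraries held 11.7 to 389.9 CPM of Ighg2b, and SHAM libraries 0.1003 to 16.4 CPM. Summed CPM of 12 macrophage markers was also highest in these 3 libraries, at 658 in MM5, 335 in MM8 and 523 in MM9, and results for the 10 genes are therefore given with and without them. Levels below are the lowest, median and highest over the 9 libraries of a group unless a mean is named.

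None of the 10 genes passed edgeR's quasi-likelihood test between MM and SHAM at an adjusted p under 0.05, against 2.99% of all genes tested. Socs3, Il1r1 and Cp came nearest, and 4 of the 10 (these and Lrg1) had an unadjusted p under 0.05, against 22.5% of all genes. DESeq2, run on the same counts, called Socs3, Cp and Il1r1 and none of the others, against 6.98% of the genes it tested. Without MM2 alone, edgeR called the same 3 genes, against 6.39% of all genes, and without MM5, MM8 and MM9 it called none of the 10, against 0.375%. The log2 fold change was above 0 for 7 of the 10 genes and for 48.9% of all genes, with a median of 0.27 over the 10 and of 0.00 over all genes tested. The ranges of both groups overlapped for every one of the 10 genes, and 0.146% of all genes had groups that did not overlap. MM5, MM8 and MM9 were the 3 highest MM libraries for Socs3, Steap4, Il1r1 and Cp, 4 of the 10 genes, against 18% of all genes.

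**Figure D1:**
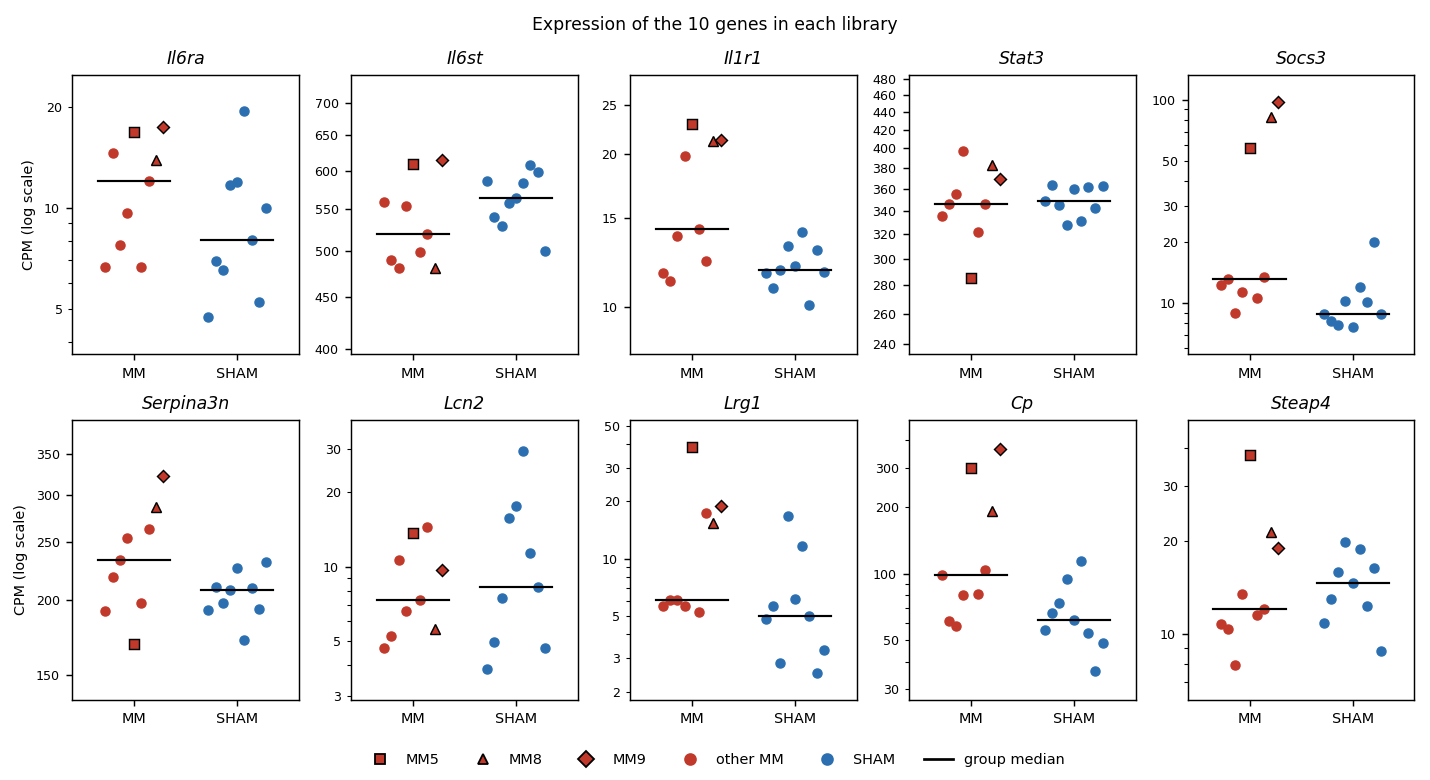
Level of each of the 10 genes in CPM on a log scale, 1 point per library, MM left and SHAM right, with the group median as a line; MM5, MM8 and MM9 have their own symbols. For Socs3, Cp, Il1r1 and Steap4 these 3 libraries are the highest of the MM group, and for no gene do the groups separate.

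**Figure D2:**
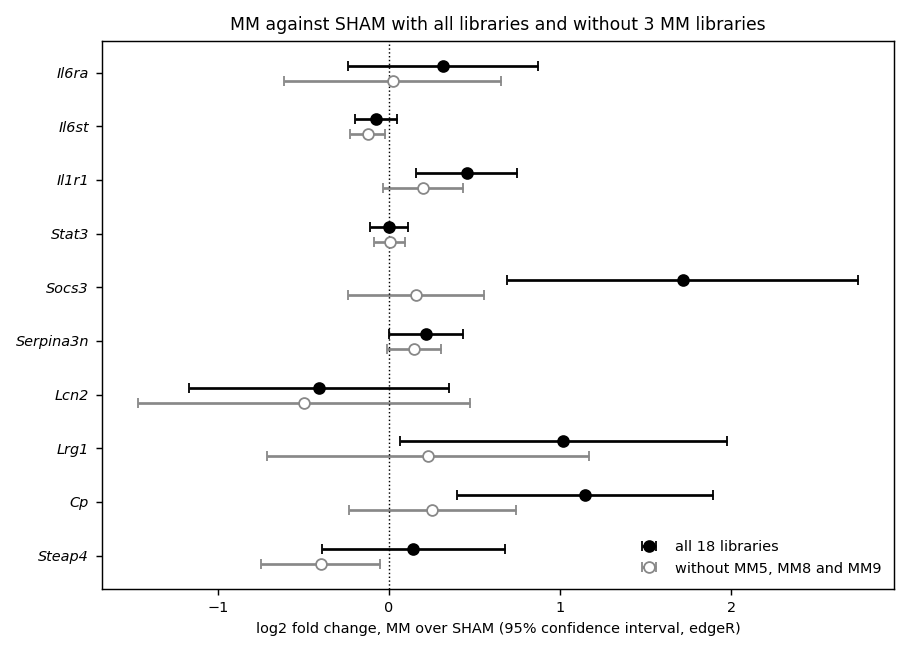
log2 fold change of MM over SHAM for each gene with its 95% confidence interval from edgeR, with all 18 libraries (filled) and without MM5, MM8 and MM9 (open). With all libraries the intervals of Socs3, Cp, Lrg1 and Il1r1 lie above 0 before adjustment. Without those 3 libraries the estimates of these 4 genes lie between 0.16 and 0.25. The intervals of Steap4 (-0.75 to -0.05) and Il6st (-0.23 to -0.02) then lie below 0 before adjustment.

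Neither chain of the IL-6 receptor passed the test. Il6st (gp130; ENSMUSG00000021756) had 480, 520 and 614 CPM in MM, against 500.0, 564 and 608 CPM in SHAM. 4 MM libraries lay below the lowest SHAM library and 2 above the highest. The log2 fold change was -0.08 ± 0.06 (SE), with an adjusted p of 0.438 in edgeR. As a fold change, the 95% interval of gp130 RNA ran from 0.872 to 1.03. Without MM5, MM8 and MM9 the log2 fold change was -0.12, with an adjusted p of 0.390.

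Il6ra (ENSMUSG00000027947), the chain that gives a cell its own response to IL-6, had 6.67, 12.0 and 17.4 CPM in MM, against 4.74, 8.05 and 19.4 CPM in SHAM. The highest library of all was SHAM6, at 19.4 CPM, and the groups overlapped over nearly their whole range. Its log2 fold change was 0.32 ± 0.27 (SE), with an adjusted p of 0.484 in edgeR. It was 0.02 without MM5, MM8 and MM9, with an adjusted p of 0.991. Exons of both Il6ra transcripts share 208 and 242 bases with the antisense gene Gm42809, and whether the libraries kept the strand is not given in the sources used here. In TPM, which corrects for transcript length, Il6st stood 37.3 ± 15.1 times above Il6ra in MM libraries, against 49.97 ± 21.9 times in SHAM libraries (SD, n = 9 each), a ratio whose ranges of 23.6 to 64.9 in MM and 22.4 to 89.5 in SHAM overlapped.

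Il1r1 (ENSMUSG00000026072), the signalling receptor for interleukin-1, had 11.2, 14.3 and 23.0 CPM in MM, against 10.1, 11.8 and 14.1 CPM in SHAM. MM5 held 23.0 CPM, MM9 21.4 CPM and MM8 21.2 CPM, and MM4 followed at 19.9 CPM. 5 MM libraries lay above the highest SHAM library, while the others lay within the SHAM range. The fold change was 1.37 (95% interval 1.12 to 1.68), or 0.46 ± 0.14 (SE) in log2, with an adjusted p of 0.0796 in edgeR and 0.0356 in DESeq2. With MM5, MM8 and MM9 left out it was 0.20 in log2, with an adjusted p of 0.613 in edgeR.

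Stat3 (ENSMUSG00000004040), the transcription factor at the centre of the pathway, had 286, 346 and 398 CPM in MM, against 327, 348 and 364 CPM in SHAM. The spread was wider in MM, where MM5 was lowest and MM4 highest. The means were 349 ± 33.5 CPM in MM libraries, against 349 ± 13.9 CPM in SHAM libraries (SD, n = 9 each), and the log2 fold change was 0.00 ± 0.05 (SE), with a 95% interval of -0.11 to 0.11 and an adjusted p of 0.990 in edgeR. It was 0.0039 without MM5, MM8 and MM9, with an adjusted p of 0.988. The Stat3 gene overlaps Stat5a on the other strand, but its 2 most abundant transcripts share no exon base with it.

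Socs3 (ENSMUSG00000053113), the feedback inhibitor of gp130, had the largest fold change of the 10 genes. It had 8.92, 13.2 and 98.0 CPM in MM, against 7.68, 8.90 and 19.9 CPM in SHAM. MM9 held 98.0 CPM, MM8 82.8 CPM and MM5 57.8 CPM, while the other 6 MM libraries lay at 11.6 ± 1.71 CPM (SD) and did not exceed 13.4 CPM. All 9 MM libraries were above the SHAM median, but only those 3 were above SHAM8, the highest SHAM library. The fold change was 3.29 (95% interval 1.61 to 6.70), or 1.72 ± 0.49 (SE) in log2, with an adjusted p of 0.0618 in edgeR and 0.0123 in DESeq2. Leaving out MM1, MM2, MM3, MM4 or MM6 alone brought the adjusted p in edgeR to between 0.0374 and 0.0462. Without MM5, MM8 and MM9 the fold change was 1.12 (95% interval 0.85 to 1.47), with an adjusted p of 0.858.

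**Figure D3:**
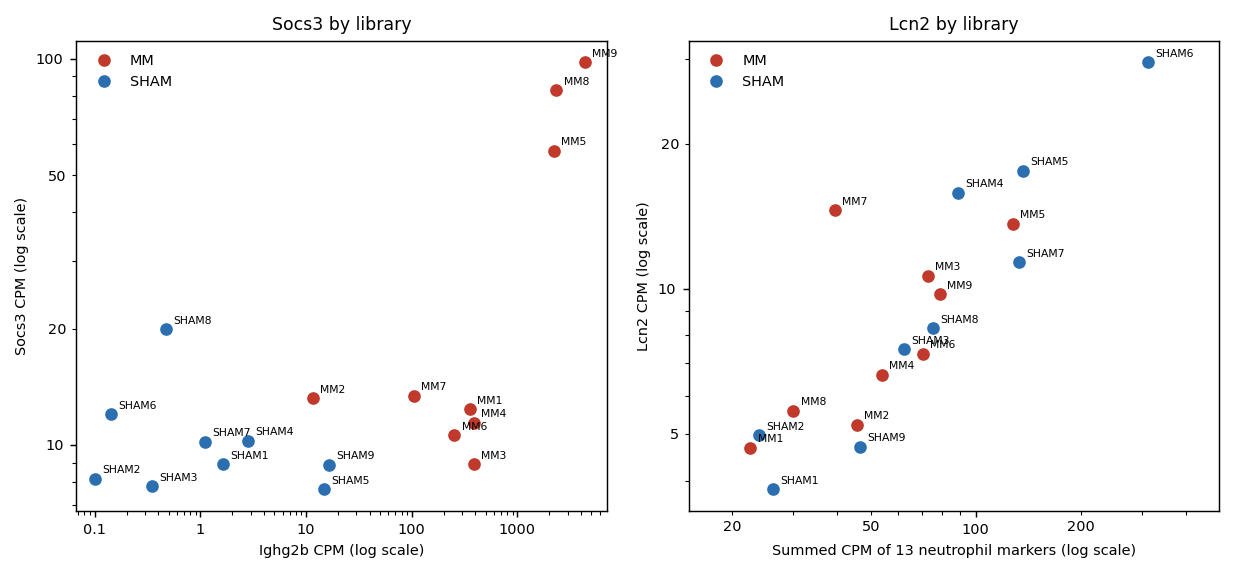
Each library as 1 point on log scales in CPM, MM in red and SHAM in blue: Socs3 against the heavy chain gene Ighg2b (left), and Lcn2 against the sum of 13 neutrophil markers (right). MM5, MM8 and MM9 hold the most Ighg2b and the most Socs3, and SHAM6 holds the most neutrophil marker RNA and the most Lcn2.

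The libraries with the most Socs3 were those with the most Ighg2b. Among the other libraries, SHAM8, at 0.477 CPM of Ighg2b, held 19.9 CPM of Socs3, and MM3, at 389 CPM of Ighg2b, held 8.92 CPM. 7 of 12 macrophage markers and 8 of 9 measured myeloma markers passed the test as higher in MM, against 2.75% of all genes. Without MM5, MM8 and MM9, 1 of 12 and 5 of 9 passed, against 0.331% of all genes. The part that these cells have in the Socs3 result was not tested. In bulk tissue, more cells of a type and more RNA per cell cannot be told apart, here and in the results below.

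Serpina3n (ENSMUSG00000021091), a secreted inhibitor of serine proteases that neurons and glia make after injury, was the most abundant of the 10 genes in TPM. It had 169, 234 and 322 CPM in MM, against 171, 208 and 231 CPM in SHAM. 5 MM libraries were above the highest SHAM library, whereas MM5, at 169 CPM, was the lowest of all 18. The fold change was 1.16 (95% interval 0.999 to 1.35), or 0.22 ± 0.10 (SE) in log2, with an adjusted p of 0.226 in edgeR. Without MM5, MM8 and MM9 the log2 fold change was 0.15, with an adjusted p of 0.564. The mouse genome holds several genes related to this one in sequence. How reads were divided among them carries an uncertainty that the test does not know. Of 11 such genes listed, Serpina3n included, 5 were measured and none passed the test. Serpina3g averaged 84.3 ± 13.05 CPM in MM libraries, against 87.0 ± 9.92 CPM in SHAM libraries (SD, n = 9 each). Its log2 fold change was -0.05, with an adjusted p of 0.788 in edgeR.

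Lcn2 (ENSMUSG00000026822), lipocalin-2, binds bacterial iron carriers and is both an acute phase protein and a constituent of neutrophil granules. It had 4.68, 7.33 and 14.6 CPM in MM, against 3.84, 8.27 and 29.5 CPM in SHAM. The 3 highest libraries of all were SHAM6 at 29.5 CPM, SHAM5 at 17.6 CPM and SHAM4 at 15.8 CPM. The log2 fold change was -0.41 ± 0.36 (SE), with a 95% interval of -1.17 to 0.35 and an adjusted p of 0.515 in edgeR. It was -0.50 without MM5, MM8 and MM9, with an adjusted p of 0.790. Among MM libraries MM7 held the most Lcn2, so the 3 libraries with the most Socs3 were not those with the most Lcn2.

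Neutrophil marker RNA differed between libraries along with Lcn2. The sum of 13 neutrophil markers, none of them at 0 in every library, ran from 22.6 to 128 CPM in MM and from 24.0 to 312 CPM in SHAM, with the highest value in SHAM6. 11 of these markers were measured and none passed the test, with a median log2 fold change of -0.79; Ngp, a granule protein, was at -0.69 and S100a9 at -0.9997, with adjusted p of 0.349 and 0.202 in edgeR. The 3 genes whose deviations from their SHAM mean lay closest to those of Lcn2 over the 18 libraries were Pglyrp1, Ngp and Camp, all granule proteins of neutrophils, at root mean square differences of 0.46, 0.49 and 0.49 in log2. MM7 stood off from the others, with 14.6 CPM of Lcn2 beside 39.5 CPM of neutrophil markers. The part of neutrophils in the level of Lcn2 was not tested.

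Lrg1 (ENSMUSG00000037095), a secreted leucine-rich glycoprotein that modifies TGF-beta signalling in vessels, had 5.25, 6.06 and 38.8 CPM in MM, against 2.49, 5.00 and 16.8 CPM in SHAM. MM5 held 38.8 CPM, MM9 18.9 CPM, MM7 17.5 CPM and MM8 15.5 CPM, and the other 5 MM libraries were between 5.25 and 6.06 CPM. All 9 MM libraries were above the SHAM median, but SHAM4 at 16.8 CPM and SHAM6 at 11.7 CPM were above most of them. The fold change was 2.03 (95% interval 1.05 to 3.93), or 1.02 ± 0.46 (SE) in log2, with an adjusted p of 0.198 in edgeR, and without MM5, MM8 and MM9 it was 0.23 in log2 with an adjusted p of 0.932. Of Lrg1 and its 5 partners in TGF-beta signalling none passed the test; the receptor Tgfbr2 had a log2 fold change of 0.21 (adjusted p = 0.504 in edgeR) and the co-receptor Eng 0.31 (adjusted p = 0.408 in edgeR). 10 endothelial markers summed to 343 CPM in MM5, the highest of all libraries, against 135 to 243 CPM in the other MM libraries and 140 to 226 CPM in SHAM. The sums of macrophage, fibroblast, Schwann cell and satellite glia markers were also highest in MM5. The part of any of these cells in the level of Lrg1 was not tested.

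Cp (ENSMUSG00000003617), ceruloplasmin, is a copper protein that oxidises iron so that it can leave cells. It had 57.9, 98.1 and 365 CPM in MM, against 36.3, 61.7 and 114 CPM in SHAM. MM9 held 365 CPM, MM5 299.9 CPM and MM8 192 CPM, and no other MM library exceeded 104 CPM, which is within the SHAM range. The fold change was 2.21 (95% interval 1.32 to 3.71), or 1.15 ± 0.36 (SE) in log2, with an adjusted p of 0.0806 in edgeR and 0.0347 in DESeq2. Without MM5, MM8 and MM9 it was 1.19 (95% interval 0.85 to 1.67), with an adjusted p of 0.785 in edgeR. Closest to Cp in their deviations were Laptm5, a lysosomal protein of blood cells, Stard5 and Emp1. Their root mean square differences were 0.23, 0.24 and 0.25 in log2. Macrophage markers were highest in the same 3 libraries, as given above, and so were the sums of myeloma markers. The part of these cells in the level of Cp was not tested.

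Steap4 (ENSMUSG00000012428), a reductase of iron and copper induced by inflammation in fat and liver, had 7.96, 12.0 and 37.8 CPM in MM, against 8.83, 14.6 and 19.9 CPM in SHAM. MM5 held 37.8 CPM and MM8 21.3 CPM, the only MM libraries above the highest SHAM library, and the median was lower in MM. The log2 fold change was 0.14 ± 0.25 (SE), with a 95% interval of -0.39 to 0.68 and an adjusted p of 0.761 in edgeR. Its sign turned without MM5, MM8 and MM9, to -0.40 with an adjusted p of 0.432. MM5 also had the highest sums of fibroblast markers (3658 CPM, against 555 to 1660 CPM in the other MM libraries and 603 to 2552 CPM in SHAM) and of Schwann cell markers (17447 CPM), and the lowest sum of sensory neuron markers (6908 CPM). Its sum of macrophage markers was 658 CPM, as given above. Adipocyte markers summed to 73.5 CPM in MM5, against 2.01 to 23.2 CPM in the other MM libraries. SHAM8 had a higher adipocyte sum, at 95.03 CPM, and held 16.4 CPM of Steap4, within the range of the other SHAM libraries. The part of any of these cells in the level of Steap4 in MM5 was not tested.

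Since several of these genes were high in the same libraries, the promoters of all 10 were searched for the letters that STAT factors (TTCNNNGAA, and its tighter form TTCCNGGAA), C/EBP factors (TTGCNNAA) and NF-kappaB (its kappaB motif) are known to bind, on both strands. The windows run from 250 bases before to 50 after the start in RefSeq's table for GRCm38.p6, an older build than that of the quantifications. Those with a match are shown for the genes that varied most between libraries, so that the letters can be read beside the values, with the matches in capitals.

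Socs3, chr11:117969317-117969616, minus strand: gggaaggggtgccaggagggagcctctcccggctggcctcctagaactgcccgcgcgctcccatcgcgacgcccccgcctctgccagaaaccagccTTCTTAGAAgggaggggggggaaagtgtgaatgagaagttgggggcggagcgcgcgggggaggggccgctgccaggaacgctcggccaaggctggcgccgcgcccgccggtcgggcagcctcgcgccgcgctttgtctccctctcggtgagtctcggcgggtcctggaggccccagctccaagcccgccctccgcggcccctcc

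Steap4, chr5:7960222-7960521, plus strand: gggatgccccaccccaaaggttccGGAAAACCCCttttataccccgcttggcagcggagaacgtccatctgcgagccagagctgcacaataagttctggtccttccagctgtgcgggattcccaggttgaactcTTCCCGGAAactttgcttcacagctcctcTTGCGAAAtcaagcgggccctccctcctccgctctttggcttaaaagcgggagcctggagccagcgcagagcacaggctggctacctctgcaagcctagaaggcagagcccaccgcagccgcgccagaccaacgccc

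Cp, the second of 2 starts, chr3:19956999-19957298, plus strand: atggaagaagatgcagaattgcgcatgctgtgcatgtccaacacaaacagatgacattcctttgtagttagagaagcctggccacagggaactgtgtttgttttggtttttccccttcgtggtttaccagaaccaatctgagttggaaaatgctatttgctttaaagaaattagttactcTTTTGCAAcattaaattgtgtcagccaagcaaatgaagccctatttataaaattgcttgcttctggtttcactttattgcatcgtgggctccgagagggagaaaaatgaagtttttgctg

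Lcn2, chr2:32387690-32387989, minus strand: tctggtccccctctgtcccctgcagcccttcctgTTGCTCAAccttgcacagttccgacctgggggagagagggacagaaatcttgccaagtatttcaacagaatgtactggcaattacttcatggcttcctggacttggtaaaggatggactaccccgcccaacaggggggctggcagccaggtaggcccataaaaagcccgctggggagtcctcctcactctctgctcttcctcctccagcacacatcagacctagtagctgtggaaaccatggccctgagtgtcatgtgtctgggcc

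In Socs3 the capitals are a single TTCNNNGAA match at position -154 from the start, and 8.3% of 32851 promoters hold such a match. Steap4 held all 4 patterns, with the kappaB motif on the minus strand at -226, TTCNNNGAA at -116 and TTGCNNAA at -87; its TTCNNNGAA match is also the TTCCNGGAA match, which 1.15% of promoters hold. Cp held TTGCNNAA on the minus strand at -70 and Lcn2 the same pattern at -216, and 10.8% of promoters hold it. The kappaB motif occurs in 1.63% of promoters. Of the genes that varied less, Serpina3n held it at -171, and the first of 2 windows of Il1r1 held TTGCNNAA at -133. The windows of Lrg1, Il6ra, Stat3 and Il6st, the first of Cp and the second of Il1r1 held none of these letters. These matches describe the sequence and are not evidence of binding.

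In TPM, the levels of the 10 genes spanned from 215 ± 40.1 for Serpina3n to 3.89 ± 1.34 for Il6ra in MM libraries, and from 193 ± 22.3 to 3.42 ± 1.55 in SHAM libraries (SD, n = 9 each). Stat3 followed, at 140 ± 15.9 TPM in MM and 146 ± 11.2 TPM in SHAM, with Il6st at 128 ± 13.1 TPM in MM and 144 ± 8.20 TPM in SHAM. Stat3 was above Il6st in 4 of 9 SHAM libraries, so these neighbours did not differ beyond their spread in SHAM. Among MM libraries it was below Il6st only in MM5, at 109 against 140 TPM. Cp came next, at 80.9 ± 62.0 TPM in MM and 34.2 ± 9.99 TPM in SHAM. Lcn2 was at 22.0 ± 8.86 TPM in MM and 30.7 ± 22.0 TPM in SHAM. Cp was above Lcn2 in 5 of 9 SHAM libraries and in every MM library. Lrg1, Steap4 and Socs3 formed a group without a firm order in SHAM, with means of 9.78, 8.46 and 7.89 TPM there. In MM the mean of Socs3 was 23.4 ± 22.6 TPM, above those of Lrg1 at 18.4 ± 14.3 TPM and Steap4 at 8.80 ± 4.46 TPM. Il1r1, at 6.10 ± 1.68 TPM in MM and 4.51 ± 0.46 TPM in SHAM, was above Il6ra in 8 of 9 SHAM libraries.

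Reads of Cp, Il6st and Il6ra were divided over several transcripts, while each of the other genes had 1 transcript with most of its TPM. Cp-202 made up 43.5 ± 8.29% of Cp TPM in MM libraries, against 29.6 ± 3.66% in SHAM libraries (SD, n = 9 each), with ranges of 34.0% to 53.1% in MM and 25.2% to 36.2% in SHAM. Cp-201 made up 24.0 ± 12.8% in MM and 38.3 ± 6.20% in SHAM, and was lowest in MM9, at 5.97%. The ranges of both transcripts overlapped between the groups. The test of transcript use in edgeR gave Cp an adjusted p of 0.0735, and 0.950 by the Simes method, 0.835 without MM5, MM8 and MM9. None of the 4 genes it could test was called, against 0.518% of 8300 genes.

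In absolute level, Cp-201 was at 14.0 ± 4.84 TPM in MM and 13.4 ± 5.32 TPM in SHAM, while Cp-202 was at 38.0 ± 34.5 TPM in MM libraries, against 10.3 ± 3.95 TPM in SHAM libraries (SD, n = 9 each). Cp-201 shares 108 exon bases with Hps3 on the other strand and the other 3 main transcripts share none; Hps3 itself had a log2 fold change of -0.05, with an adjusted p of 0.675 in edgeR. The main transcript made up 87.3 ± 1.92% of Stat3 TPM in MM and 86.2 ± 1.51% in SHAM, and the larger of the 2 main Il6st transcripts 51.9 ± 4.76% of Il6st TPM in MM libraries, against 49.5 ± 1.69% in SHAM libraries (SD, n = 9 each). Their adjusted p for transcript use were 0.771 and 0.998 in edgeR.

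**Figure D4:**
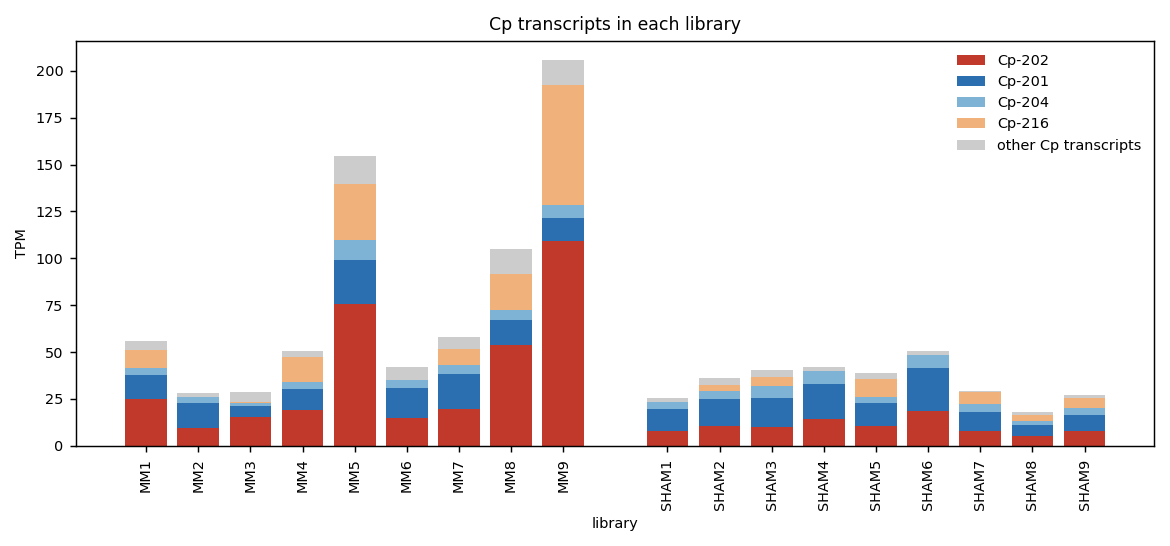
TPM of Cp transcripts stacked in each library, MM left and SHAM right. The 4 main transcripts are named, Cp-216 being one with a retained intron. Cp-202 is the largest part in MM5, MM8 and MM9, where total Cp is highest, and also in MM1, MM3, MM4 and MM7. Its share in MM3, at 28.5 TPM of Cp, is 53.0%, and that in MM9 is 53.1%. Cp-201 is the largest part in MM2, MM6 and every SHAM library, and stays at similar heights in both groups.

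Around the 10 genes, 8 of 99 measured genes of the pathway lists passed edgeR's test, all higher in MM, against 2.75% of all genes called higher. These lists share members with the 10 genes and in part with each other. Of 7 receptor genes of the IL-6 family none passed; Lifr, the receptor chain for LIF, was at 302 ± 46.3 CPM in MM libraries, against 336 ± 24.3 CPM in SHAM libraries (SD, n = 9 each), with an adjusted p of 0.281 in edgeR.

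Of 18 measured Stat3 targets and feedback genes, 3 rose and none fell, against 2.75% of all genes called higher. The median log2 fold change of the 18 was 0.92. Timp1, an inhibitor of matrix proteases, rose by 2.64 ± 0.59 (SE) in log2 with an adjusted p of 0.0267. Bcl3, a co-regulator of NF-kappaB, rose by 0.84 ± 0.19 (SE) with an adjusted p of 0.0284, and the kinase Pim1 by 1.68 ± 0.39 (SE) with an adjusted p of 0.0317, both in edgeR. Pim1 had 13.5, 19.4 and 111 CPM in MM, against 9.60, 12.1 and 13.9 CPM in SHAM, so that 7 MM libraries lay above every SHAM library. It was the only gene of all pathway lists that passed without MM5, MM8 and MM9, at a log2 fold change of 0.50 and an adjusted p of 0.0440 in edgeR, where 0.331% of all genes were called higher.

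Of 13 measured genes of the interleukin-1 pathway, 2 rose, against 2.75% of all genes called higher. Both are inhibitors or modulators of NF-kappaB that its own signal induces. Nfkbia rose by 0.83 ± 0.21 (SE) in log2 with an adjusted p of 0.0408 in edgeR, and Nfkbiz by 1.48 ± 0.39 (SE) with an adjusted p of 0.0462. Nfkbia also stands in a list of 12 glucocorticoid targets, of which it alone passed. Of 16 measured acute phase genes, which include 5 of the 10, none passed. An unadjusted p under 0.05 in edgeR was found for 9 of the 16, against 22.5% of all genes. The median log2 fold change of the 16 was 0.83. Serping1, the complement inhibitor, was the most abundant of them after Serpina3n, at 178 ± 74.8 CPM in MM libraries, against 172 ± 41.4 CPM in SHAM libraries (SD, n = 9 each), with an adjusted p of 0.882 in edgeR. Of 16 measured genes of iron and copper handling, Steap1, a relative of Steap4, rose by 0.83 ± 0.21 (SE) in log2 with an adjusted p of 0.0397 in edgeR, at a low level of 1.24 ± 0.48 CPM in MM and 0.693 ± 0.145 CPM in SHAM. The 8 hepatocyte markers summed to at most 1.96 CPM in every library and none was measured.

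Lists of markers placed these results in the tissue. Of 9 measured myeloma markers, 8 rose, and 5 passed without MM5, MM8 and MM9; Igkc, the kappa light chain constant region, rose by 7.33 ± 1.0 in log2 (SE), and Irf4 and Pou2af1, transcription factors of plasma and B cells, by 5.27 ± 0.80 and 5.35 ± 0.84, all with an adjusted p of 0.00681 in edgeR. Of 12 macrophage markers, 7 rose, and 1 passed without MM5, MM8 and MM9, as given above. Those of lowest p were the protease Ctss, which rose by 2.70 ± 0.52 in log2 (SE), the lysosomal Cd68 by 3.11 ± 0.60 and the Fc receptor Fcgr1 by 2.28 ± 0.50, with adjusted p of 0.0159, 0.0171 and 0.0249 in edgeR. The median log2 fold change of the 12 was 1.35, and 11 of them were above 0. Cx3cr1 was at -0.11 and Csf1r at 0.58, with adjusted p of 0.809 and 0.204 in edgeR. None of the markers of endothelium, fibroblasts, satellite glia, Schwann cells, sensory neurons, injured neurons or adipocytes passed. Markers of injured neurons, in which IL-6 family signals are well known, summed to 178 to 602 CPM in MM and 180 to 282 CPM in SHAM, with the highest sums in MM8, at 602 CPM, and MM4, at 494 CPM. MM8 was among the libraries with the most Socs3, and MM4 was not. SHAM8 had the highest sum of the SHAM libraries, at 282 CPM, and also the most Socs3 among them. MM9, with the most Socs3 of all, summed to 267 CPM, and MM5 to 211 CPM. The part of injured neurons in the level of Socs3 was not tested.

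The genes most like the others of the 10 in their pattern over the 18 libraries were named by the same rule. Closest to Socs3 were Eif4ebp1, Trib1 and Tmem173, at root mean square differences of 0.37, 0.40 and 0.41 in log2. Closest to Lrg1 were Tgm2, Il33 and Emp1, at 0.46, 0.47 and 0.47, and Emp1 was also among the 3 closest to Cp, at 0.25, with Laptm5 and Stard5. Closest to Steap4 were Flna, Snap23 and Bmp1, at 0.24, 0.25 and 0.26, and closest to Il6ra were Sh3bp5, Maff and Prss23, at 0.32, 0.34 and 0.34. Il6st, Stat3, Serpina3n and Il1r1 varied by less than 0.5 in log2 (SD over the 18 libraries) and were given no such neighbours.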

How the data were processed

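RNA of 18 libraries, 1 per mouse, was sequenced on DNBSEQ instruments. The authors quantified transcripts with Salmon 1.5.2 on GRCm39, per the submitters' processing notes; index and options are not given in the sources used here. The deposited files hold estimated counts, not scaled by the authors, TPM scaled by Salmon, and effective lengths in bases estimated per library. A deposited table holds a normalized signal per gene that the authors made with DESeq2 and that served only for an alternative.

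Here estimated counts were summed per gene with GENCODE M21, an annotation of GRCm38 used for names and exon overlap only, and rounded. Of 137562 transcripts, 3620 had no gene and held 0.85% to 1.339% of reads. Genes were kept by filterByExpr, scaled by TMM and tested with edgeR 4.0.16 (robust quasi-likelihood, group only, R 4.3.3). P-values were adjusted by Benjamini-Hochberg over 15774 genes, with a threshold of 0.05; the biological coefficient of variation was 0.258. Transcript use was tested with diffSpliceDGE. Alternatives used DESeq2 1.42.0 and limma 3.58.1, and plots matplotlib 3.10.9. TPM per gene is the sum over transcripts.

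Counts were simulated for 15586 genes from SHAM means and the spread between SHAM libraries. In them, 78% of 1.5-fold, 96% of 2-fold and 98% of 4-fold rises and 86% of 0.5-fold falls were recovered, with 10 false among 189 calls. The spread between MM libraries did not enter. It was wider than in SHAM for Socs3, Cp and Lrg1, among others, and narrower for Lcn2 and Il6ra. These shares therefore do not give the power for the 10 genes. For transcript use over 7783 genes, 44 of 182 simulated calls were false, so calls of that test would need caution.

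The members and lists were chosen with earlier results of these data known. Named were all 10 genes; of each list up to 3 passing genes per direction by lowest p, otherwise the 2 of highest mean CPM; and, for members with an SD of at least 0.5 in log2 CPM (prior count 2), the 3 genes of at least 1 CPM with the smallest root mean square difference. Of promoters of these members, those with a match are printed. Ighg2b, Hps3, Il6, Il1b and Saa3 and the values of single libraries were chosen after their values were seen. Some results that the rule for named genes would give are not reported here.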

Additional observations from a re-analysis of the deposited data

Results flagged for a closer look

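In 20 groups of 9 libraries (10 genes, MM and SHAM), 4 held a library far from the others by Dixon's test on CPM that were not logged. Its nominal rate of about 1 in 20 assumes normally spread values and independent groups. CPM were skewed and the groups share the same 18 libraries, so the count of 4 cannot be weighed against chance. Lrg1 in MM5 was at 38.84 CPM, with the next MM library at 18.87 CPM. Steap4 in MM5 was at 37.77 CPM, with the next MM library at 21.3 CPM. Socs3 in SHAM8 was at 19.94 CPM, with the next SHAM library at 12.02 CPM. SHAM8 also had the highest sum of adipocyte markers, at 95.03 CPM, and the part of adipocytes in its Socs3 level was not tested. Il6ra in SHAM6 was at 19.35 CPM, with the next SHAM library at 11.92 CPM. SHAM6 was also the SHAM library with the most Lcn2, Cp and Il1r1. Socs3 in MM was not marked, because MM5, MM8 and MM9 were high together.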

How the results depend on the processing

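Among the 10 genes, edgeR called 0 with all libraries, DESeq2 called 3, and leaving out 1 library at a time gave 0 to 3: Socs3 without MM1, MM2, MM3, MM4 or MM6, Il1r1 without MM1 or MM2, and Cp without MM2, where 6.39% of all genes were called. Pathway genes called higher numbered 8; without a filter on low counts there were 4, without SHAM7 and SHAM8 0, without MM5, MM8 and MM9 1, with DESeq2 28, with limma on the deposited values 2, and with 1 library left out 0 (MM5) to 23 (MM2). All genes called numbered 471; without MM5, MM8 and MM9 there were 60, with SHAM7 and SHAM8 left out 35, with DESeq2 1379, with limma on the deposited values 248, and with 1 library left out 84 (MM5) to 1014 (MM2), with 104 without MM8, 121 without MM9, 760 without MM1 and 732 without SHAM6. The cause was not tested. Each SHAM library other than SHAM6, left out alone, also lowered the count by over 1.5 times, to between 120 and 287.

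The sign of Steap4 turned without MM5, MM8 and MM9, to -0.40 in log2, and over single libraries left out it ran from -0.13 (without MM5) to 0.23. Stat3, near 0 throughout, was at 0.0039 in log2 without MM5, MM8 and MM9 and between -0.027 and 0.031 with 1 library left out. The other 8 genes kept their direction in every alternative run. With the replicate number as a block, 0 of the 10 genes, 0 pathway genes and 8 genes in all were called; the numbers did not pair the libraries, since deviations of equal numbers correlated between -0.32 and 0.263, over 0.1 in 2 of 9 pairs, and 2 of 18 libraries correlated best with their own number. Depth limits the genes of few reads, of which Lrg1 had the lowest count, 47 reads in 1 library.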

Other observations

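Some ligands and acute phase genes were too low in too many of the 18 libraries to be tested. Of 10 listed ligands of the IL-6 family 6 were measured, and of 30 listed acute phase genes 16. Il6, Il1b and Saa3 are given as values, were chosen after these were seen, and do not stand for the rest. Of other genes too low to be tested, Fgg averaged 0.391 CPM in MM and 0.413 CPM in SHAM, and Apcs was at 0 in every library. Il6 itself was at 0 to 1.77 CPM in MM, with the most in MM9, and at 0 to 0.301 CPM in SHAM. Il1b, the main secreted ligand of Il1r1, was at 0 to 5.15 CPM in MM and at 0.0502 to 0.479 CPM in SHAM. Saa3, a serum amyloid A gene known from macrophages and fat, was at 0 to 13.6 CPM in MM, with 13.6 CPM in MM9 and 13.4 CPM in MM5, and at 0 to 0.140 CPM in SHAM. MM5 and MM9 also had the highest adipocyte sums of the MM libraries, at 73.5 and 23.2 CPM. SHAM8, with an adipocyte sum of 95.03 CPM, held 0.0530 CPM of Saa3. The part of adipocytes in the level of Saa3 was not tested. A value of 0 at this depth does not show that a gene was silent.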
